A study of Caenorhabditis elegans with 53 samples.

Results

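Of the 4842 genes in the neuronal expression table of Caenorhabditis elegans that carry only a clone-based identifier and no gene name 63 were most abundant at the fourth larval stage (L4). They were chosen on their values in nuclei pulled down from neurons of control worms. The mean over the L4 libraries had to be at least 50 normalised counts and at least 2 times the mean at the first larval stage (L1), at the second (L2) and in the adult. The adult mean also had to exceed 0.25 of the L1 mean. The table lists 7974 genes in all, and 1420 unnamed genes met every criterion except the 2-fold one. Because the neuronal values at each stage chose the genes, those values are given as a description, and no test of them is taken as a result.

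All worms carried the transgene otIs790, called UPN::INTACT, which labels the nuclei of neurons so that they can be purified. Control worms carried only this transgene and were collected 8 ± 1 hours after plating as L1, 21 ± 1 hours as L2, 40 ± 2 hours as L4 and 53 ± 2 hours as adults. RNA from purified neuronal nuclei (neuronal IP) was sequenced in 4 L1, 5 L2, 6 L4 and 7 adult libraries, and RNA from the unpurified nuclei (input) in 4, 3, 4 and 5 libraries. Neuronal IP libraries were also made from mutants that carried otIs790 as well. These were the null allele lin-4(e912), with 3 libraries at L1 and 4 in the adult, adult lin-14 gain of function with 5 libraries, and adult lin-28 gain of function with 3. Adult lin-4 and lin-14 mutants develop more slowly and were collected at 57 ± 2 hours, while the adult lin-28 mutants were collected with the controls. Genotype and hours after plating therefore cannot be told apart for lin-4 and lin-14. The labels conflict over the gain-of-function alleles. The growth protocol gives lin-14(ot1087) and lin-28(ot1088), but the genotype field names lin-14(e1087) for the libraries titled lin-14 and lin-14(e1088) for those titled lin-28. The groups follow the titles and the protocol, and every lin-14 and lin-28 value rests on that. Each replicate pooled about 600000 animals at L1 and L2 and about 200000 at L4 and in the adult. Since no label states that replicates were grown separately, p-values reflect only the variation among these libraries, which may be technical.

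L4 is the last larval stage. It ends in the molt to the adult, for which the epidermis makes a new cuticle, and it is the stage at which hermaphrodites make their sperm. The heterochronic pathway times such stage-specific events: the microRNA lin-4 represses lin-14, which encodes a transcription factor, and lin-28, which encodes an RNA-binding protein, and gain of function in either gene keeps early fates for longer. In neurons this pathway is known to time changes in gene expression across larval life.

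The libraries of 1 stage were not alike. Total counts ran from 8582120 to 27363082 in the larval neuronal IP libraries, from 14467748 to 53251753 in the adult ones and from 9960845 to 41927678 in the inputs. In the L4 neuronal IP, 59 of the 63 genes were higher on average in libraries 1 to 3 than in libraries 4 to 6, with a median log2 difference of 0.99. In the adult neuronal IP, 59 genes were higher in libraries 4 to 7 than in libraries 1 to 3, with a median log2 difference of 0.76. Genes of sperm followed the adult split: the median log2 CPM (counts scaled to library depth) of the sperm list lay between -0.90 and -0.53 in adult libraries 1 to 3 and between 3.53 and 4.45 in libraries 4 to 7. In the mutants, lin-4 was at 0 in all 7 libraries of the lin-4 null, against 2.41 to 31.8 normalised counts in L1 control and 3.33 to 24.8 in adult control libraries. The lin-14 transcript lay between 1442 and 2736 in the lin-14 mutants and between 1928 and 2589 in the adult controls, so its level does not check that label, and lin-28 was not in the table.

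Little is annotated about the 63 genes. In the reference annotation 58 are protein-coding, 2 are non-coding RNAs (F26A10.22 and R166.8), F26A10.28 is a small nucleolar RNA, T20B6.2 is a pseudogene and K02E11.11 was not matched. Only 7 have received a name in the annotations used here. Y55F3AM.14 is znf-782, a zinc finger protein. F36H2.3 is cfh-1, of the complement factor H family, C25F6.7 is itm-2, of the BRI family of membrane proteins, and C06G1.2 is cpg-19, a chondroitin proteoglycan. F35E2.9 is try-16, a trypsin-like protease, C01F6.2 is gldi-10 and F32D8.1 is cat-6. The others have no described role in these annotations.

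The genes lay on every chromosome, 8 on I, 14 on II, 5 on III, 10 on IV, 15 on V and 11 on X. Chromosome II held 22.2% of them against 12.5% of the whole table, chromosome IV 15.9% against 23.7% and the X chromosome 17.5% against 21.0%. Exonic length ran from 90 to 5558 bases with a median of 1134. In the coordinates of the deposited tables, whose genome build is not given in the sources used here, 13 of the 63 genes had another of the 63 within 20000 bases. On the X chromosome, F26A10.28 (7630498 to 7630587), F26A10.2 (7632043 to 7637037) and F26A10.22 (7639621 to 7639764) follow one another on the minus strand, so that a small nucleolar RNA, a protein-coding gene and a non-coding RNA peaked together. On chromosome II, Y51H7C.13 and H17B01.2 lie 4020 bases apart on opposite strands, and on chromosome V, C04E6.5 and C04E6.4 lie 2576 bases apart. The exons of F55F3.4, K09C6.2, R166.8 and T16A9.5 overlap those of another gene, and since the strandedness of the libraries is not given in the sources used here, their reads may include that gene's.

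In the neuronal IP, the L4 mean of the 63 genes ran from 50.8 to 5808 normalised counts with a median of 140, against medians of 20.6 at L1, 21.5 at L2 and 39.3 in the adult. These values are not divided by gene length and do not rank one gene against another. The L4 mean was between 2.04 and 13.3 times the next highest stage, with a median of 3.12. In bulk libraries, fewer cells of a type and less RNA per cell cannot be told apart.

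**Figure D1:**
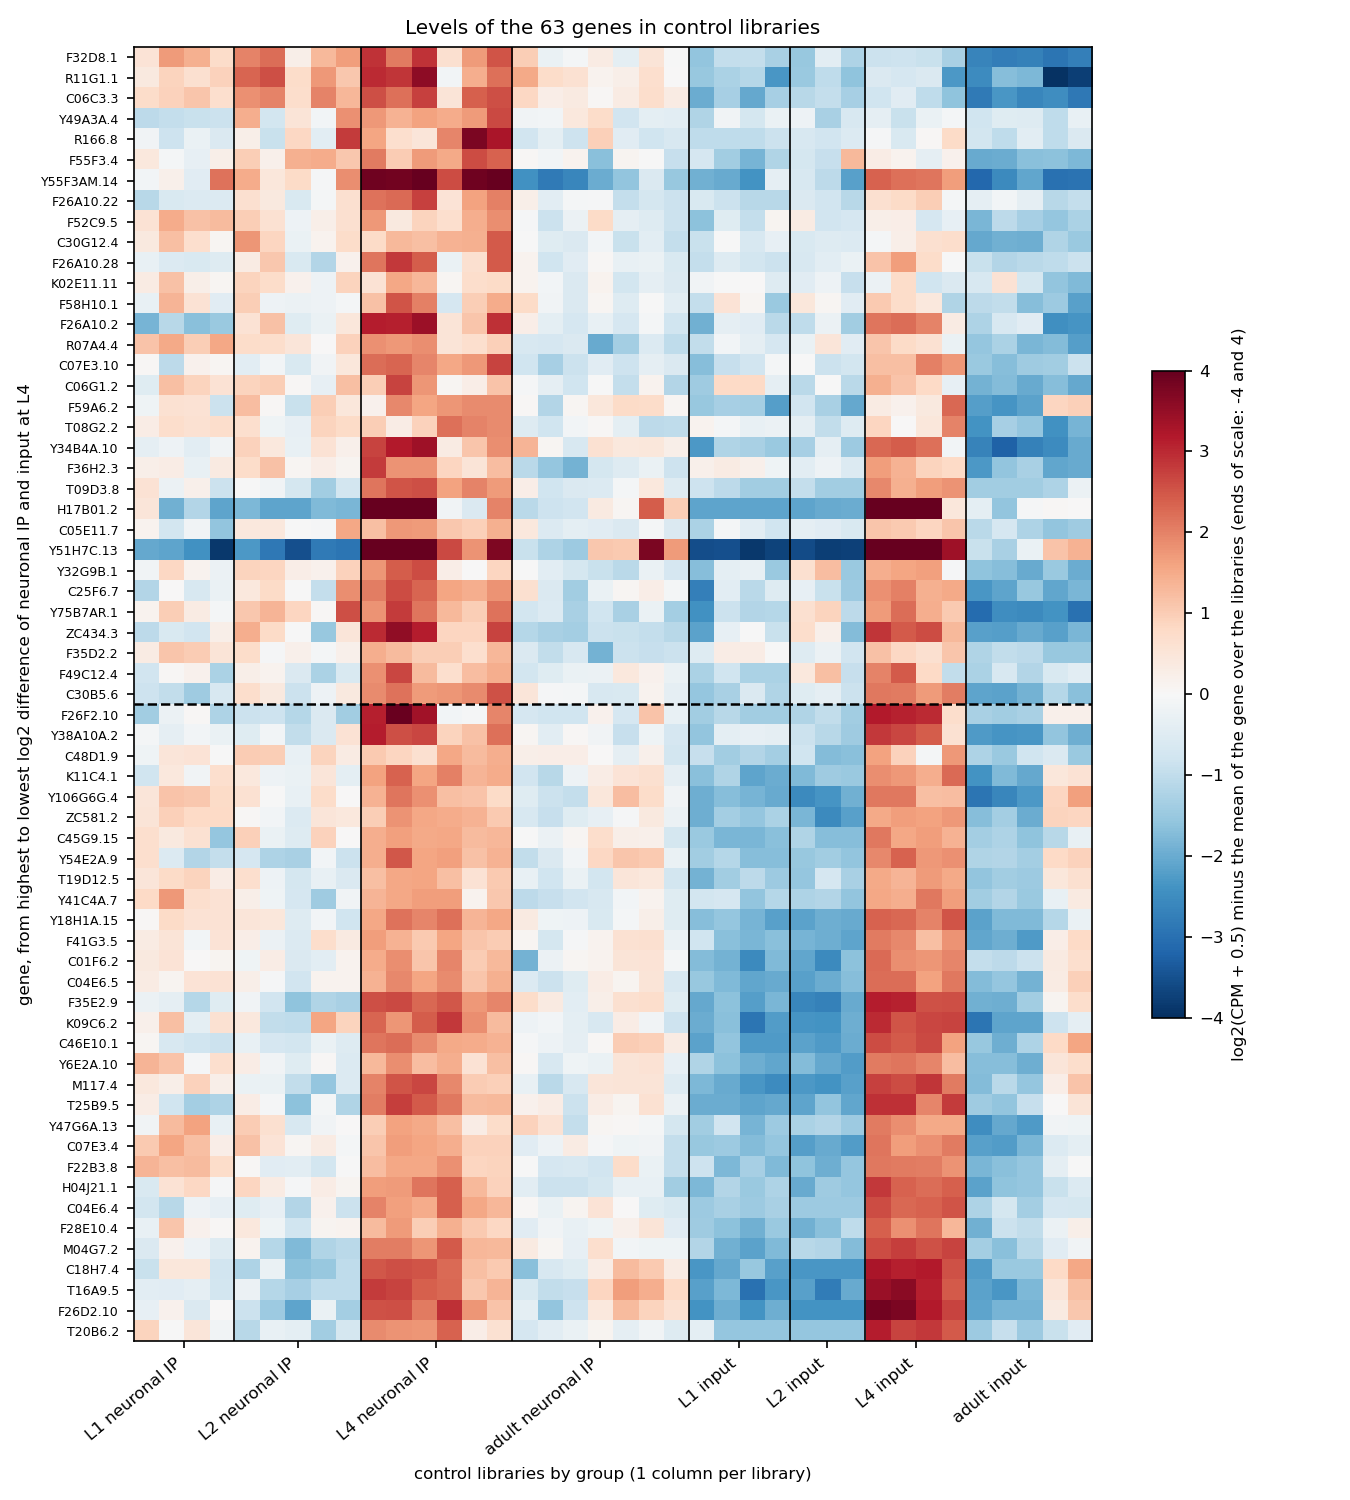
Level of the 63 genes (rows) in each of the 38 control libraries (columns, grouped by stage and by neuronal IP or input), as log2 CPM minus the gene's mean over these libraries. Rows are ordered by the L4 difference of neuronal IP and input, and the dashed line separates the 32 genes above 0 from the 31 below; the L4 columns are the high ones in both fractions, and the median over the 63 genes is higher in adult inputs 4 and 5 than in adult inputs 1 to 3, although single genes such as F26A10.2 and R11G1.1 show the reverse.

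Y55F3AM.14 (znf-782; IV, 1058845 to 1063178, minus strand) showed the L4 peak in every library. It lay at 135, 128, 92.7 and 609 normalised counts in the 4 L1 libraries, at 340, 225, 422, 146 and 814 at L2, between 2123 and 6018 at L4 with a median of 3865, and between 31.8 and 253 in the adult with a median of 66.2. The lowest L4 library was above every L1, L2 and adult library. Its L4 mean was 3941 ± 1622 (SD, n = 6) and its adult mean 96.1 ± 80.9 (SD, n = 7).

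The same absence of overlap held for 10 of the 63 genes, against 0.364% of all genes of the table, a share that the choice of the genes itself raises. Besides Y55F3AM.14 these were C04E6.4, C07E3.10, C30B5.6, F26A10.22, F55F3.4, H04J21.1, T08G2.2, T09D3.8 and Y38A10A.2. F55F3.4 was the most even of these in the L4 libraries, from 155 to 215 normalised counts with a median of 172, and it did not exceed 123 in any L2 library or 67.8 in any adult one. F55F3.4 overlaps F55F3.8 on the same strand.

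For most genes the L4 libraries spread widely. Y51H7C.13 lay between 190 and 20640 normalised counts at L4 with a median of 2280, held 0 to 10 at L1 and 1.75 to 6.53 at L2, and lay between 30.2 and 2002 in the adult with a median of 223. Its L4 libraries were above all L1 and L2 libraries and overlapped the adult ones. Its neighbour H17B01.2 lay between 7.71 and 2891 at L4 with a median of 280, at 19.6, 0, 3.53 and 0 at L1, between 0 and 0.933 at L2, and between 4.90 and 226 in the adult. R11G1.1 lay between 510 and 5490 at L4 with a median of 2372, and its lowest L4 library was below all 5 L2 libraries, which held 977, 1620, 658, 811 and 752.

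The L4 libraries at the extremes were mostly the same ones. Library 2 was the highest of the 6 for 47 genes and library 5 the lowest for 45. With L4 libraries 1 to 3 alone 62 of the 63 genes were still at least 2 times every other stage, and with L4 libraries 4 to 6 alone 37 were. With adult libraries 1 to 3 alone all 63 met that criterion, and with adult libraries 4 to 7 alone 55 did.

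The genes closest to the 2-fold criterion show how gradual it is. F52C9.5, K02E11.11 and Y47G6A.13 lay just inside, with L4 means 2.04, 2.09 and 2.1 times the next stage. F48E3.9, K08A2.2 and K12B6.2 lay just outside at 1.96, 1.95 and 1.95 times.

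The label neuronal was checked against the input libraries, and at L4 it held for only some of the genes. The log2 difference of neuronal IP and input at L4 had a median of 0.03 over the 63 genes, with 32 above 0 and 31 below. The 32 had a median of 0.60 and the 31 a median of -0.58. Above and below input mean the sign of this estimate only. L4 neuronal IP libraries 5 and 6 had no input of the same number, and library 5 was the lowest for 45 genes. How far the sign rests on them was not tested. At an adjusted p under 0.05 edgeR called 10 of the 63 above input, 0 below and 53 neither. The choice of the genes by their L4 values tilts those calls upward, so they are no test of the genes. The fit did not pair neuronal IP and input libraries of the same number, which holds for the calls and for the SEs of this difference. Of all 21040 genes tested, 6057 were called above input and 2694 below. Of the 7157 genes of the same table that could be compared, 5577 were called above input and 0 below. Of these 7157, 98% were above 0 with a median of 2.93, and 20 pan-neuronal genes, which serve synapses and neuropeptide processing in all neurons, had a median of 3.40. At the other stages the 63 genes were higher in the neuronal IP, with median log2 differences of 2.57 at L1, 2.39 at L2 and 1.30 in the adult. The 7157 genes had medians of 2.363, 2.376 and 2.475 there, so the 63 were near them at L1 and L2 and below them in the adult. The 63 genes are therefore called unnamed genes highest at L4, with no cell type.

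F32D8.1 (cat-6), R11G1.1 and C06C3.3 stood highest above input at L4. F32D8.1 lay between 8.22 and 41.7 CPM in the L4 neuronal IP, with a median of 27.7 CPM, while its 4 L4 inputs held 2.60, 2.71, 2.56 and 1.79 CPM. The 2 fractions did not overlap, and the log2 difference was 3.5 ± 0.44 (SE). It was 3.49 ± 0.58 (SE) for R11G1.1 and 3.43 ± 0.37 (SE) for C06C3.3. At the other end, T20B6.2 stood at -1.28 ± 0.68 (SE), F26D2.10 at -1.20 ± 0.73 (SE) and T16A9.5 at -0.99 ± 0.60 (SE).

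The rule that chose the genes read no input library, and stage differences were tested there with edgeR's quasi-likelihood test and Benjamini-Hochberg adjustment over 21040 genes. From L2 to L4, 50 of the 63 genes rose and 0 fell (adjusted p under 0.05), with a median log2 difference of 3.76 against -0.15 for all genes tested; 23.7% of all genes were called higher. From L1 to L4, 55 rose and 0 fell, with a median of 3.87 against -0.30 for all genes and 22.6% of all genes called higher. From L4 to the adult, 59 fell and 0 rose, with a median of -3.26 against 0.03 for all genes and 18.2% of all genes called lower. These 3 comparisons share the L4 input libraries. The inputs are not independent of the libraries that chose the genes: at L4, input and neuronal IP libraries of the same number deviated together over the 63 genes, with correlations of 0.599, 0.676, 0.533 and 0.715 for numbers 1 to 4. The choice can therefore reach the L4 inputs through shared preparations, and how far was not tested. Of the 7157 genes of the neuronal expression table tested here, 402 rose from L2 to L4 (median -0.91). From L1 to L4, 320 rose (median -1.49), and from L4 to the adult 1053 fell (median -0.10). That table mostly holds genes above input, with 5831 of the 7157 called higher than input at L1 and 0 lower. If inputs served to make it, genes low in L1 and L2 input were favoured, which tilts both rises. That was not tested.

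The adult inputs formed 2 sets. The median log2 CPM of the 63 genes lay between -1.41 and -0.95 in adult inputs 1 to 3 and at 0.44 and 0.77 in inputs 4 and 5. With inputs 1 to 3 alone, a split chosen after seeing the data, 58 genes fell from L4 to the adult with a median log2 difference of -4.73. With inputs 4 and 5 alone 45 fell with a median of -3.03, while 19.2% and 12.6% of all genes were called lower.

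The genes with the largest increase from L2 to L4 were at or near 0 before L4. F26D2.10 had no read in the 3 L2 inputs and 37.3, 34.8, 23.1 and 16.6 CPM in the 4 L4 inputs. Against a floor of 3 counts over the L2 group it was at least 710-fold higher at L4. On the same floor the pseudogene T20B6.2 was at least 249-fold higher, C18H7.4 at least 515-fold and C04E6.4 at least 184-fold.

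The pair on chromosome II was as sharply staged in whole-animal nuclei. Y51H7C.13 held 0.107, 0.0333 and 0.0483 CPM in the L2 inputs and 304, 376, 266 and 75.0 CPM in the L4 inputs, with no overlap (11.84 ± 1.89 on the log2 scale, SE; edgeR adjusted p = 1.4e-05). H17B01.2 had 2 counts in all L2 inputs together and 1461 in the L4 inputs, a ratio of 1103 with a 95% exact binomial interval from 305 to 9118, which covers counting error only. In both genes the fourth L4 input was the lowest, at 75.0 and 2.46 CPM, and still above every L1, L2 and adult input of the same gene.

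After L4, ZC434.3 fell to a small share of its input level. It held 25.5, 19.1, 21.5 and 8.29 CPM at L4 and between 0.278 and 0.515 CPM in all 5 adult inputs, which did not overlap (log2 difference -5.68 ± 0.68 SE, edgeR adjusted p = 4.66e-08). Y38A10A.2 went from 35.3, 31.8, 26.5 and 7.17 CPM to between 0.500 and 1.19 CPM, a log2 difference of -5.16 ± 0.48 (SE). Y55F3AM.14 went from 99.5, 87.6, 85.2 and 60.7 CPM to 1.69, 2.78, 4.08, 1.96 and 2.00 CPM, a log2 difference of -5.05 ± 0.59 (SE), and T20B6.2 fell by 5.36 on the log2 scale.

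The 3 genes that stood highest above input behaved otherwise from L2 to L4 in whole-animal nuclei. F32D8.1 held 1.47, 3.70 and 1.88 CPM in the L2 inputs and 2.60, 2.71, 2.56 and 1.79 CPM in the L4 inputs, which overlap (log2 difference 0.03 ± 0.46 SE, edgeR adjusted p = 0.969). The values were 0.48 ± 0.59 (SE; edgeR adjusted p = 0.537) for R11G1.1 and 0.25 ± 0.39 (SE; edgeR adjusted p = 0.623) for C06C3.3. From L4 to the adult all 3 fell in input, F32D8.1 by 2.81, C06C3.3 by 2.45 and R11G1.1 by 1.66 on the log2 scale. With adult inputs 1 to 3 alone R11G1.1 was not called (log2 difference -0.94, edgeR adjusted p = 0.148).

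Lists of genes of other tissues moved in the same input libraries. All 40 measured sperm genes rose from L2 to L4 (median log2 difference 8.65), and 10 of the 40 fell from L4 to the adult (median -1.34). That median joins 2 states: with adult inputs 1 to 3 alone 36 of the 40 fell (median -4.65), and with inputs 4 and 5 alone 8 fell (median -0.16). Of 29 molting cycle genes 10 rose and 4 fell from L2 to L4 (median 0.85), and 22 fell from L4 to the adult (median -2.33). Of 29 genes of hypodermis and cuticle, mainly collagens, 12 rose and 3 fell from L2 to L4 (median 1.92), and 23 fell and 3 rose from L4 to the adult (median -5.23). Of 20 pan-neuronal genes 12 fell from L2 to L4 (median -1.19). All 25 germline and oocyte genes rose from L2 to L4 (median 4.06), and 18 rose further and 0 fell into the adult (median 2.38). All 24 cell division genes rose (median 1.57), and 21 rose further and 0 fell (median 1.31). All 8 pharyngeal muscle genes fell from L2 to L4 (median -2.59). Lists of body wall muscle, glia, intestine, vulva with uterus and spermatheca, and heterochronic genes had medians from -1.34 to 0.11 from L2 to L4.

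The sperm, cuticle and molting lists were also present in the neuronal IP at L4. The median log2 CPM of the sperm list ran from 3.32 to 5.25 in the L4 neuronal IP and from 4.05 to 4.54 in L4 input, and did not exceed -0.33 in any L1 or L2 library. Its summed level was 388 to 1776 CPM in the L4 neuronal IP and 11 to 43.1 CPM in the L2 neuronal IP. In the L2 input 12 of 42 sperm genes were at 0 in every library. The cuticle list ran from 8.33 to 8.64 in L4 libraries 1 to 3, from 6.6 to 7.32 in libraries 4 to 6 and from 1.32 to 4.32 in the adult neuronal IP, and the molting list from 6.08 to 7.01 at L4 and from 3.64 to 4.34 in the adult. The part of RNA from these tissues in the L4 level of the 63 genes was not tested.

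**Figure D2:**
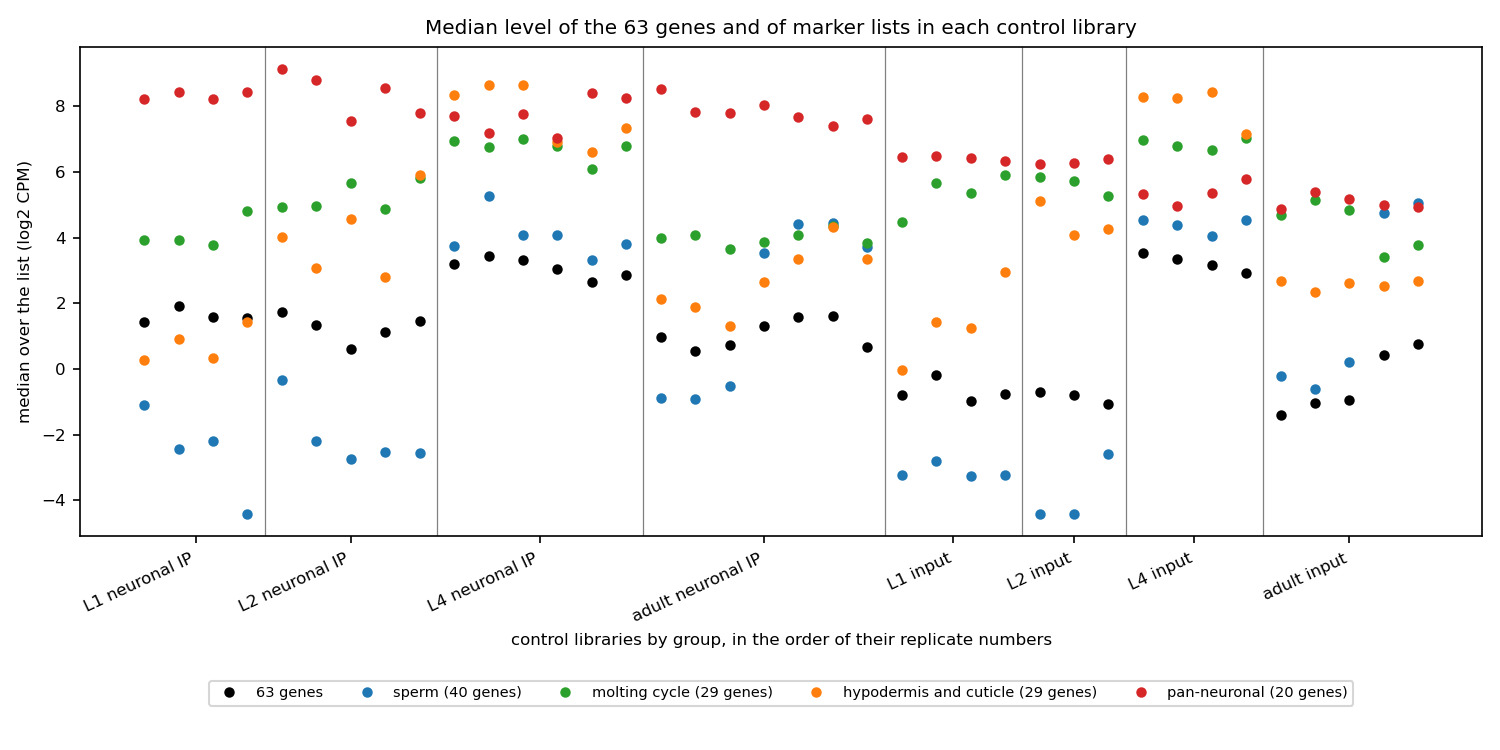
Median log2 CPM per control library of the 63 genes and of the sperm, molting cycle, hypodermis and cuticle, and pan-neuronal lists, each point 1 library, grouped by stage and by neuronal IP or input. The sperm, molting and cuticle lists are high at L4 in both fractions along with the 63 genes, and the sperm list separates adult neuronal IP libraries 1 to 3 from 4 to 7 and adult inputs 1 to 3 from 4 and 5, while the pan-neuronal list lies higher in the neuronal IP at L4 (7.02 to 8.40) than in input (4.97 to 5.78).

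The genes above and below 0 in the L4 difference of neuronal IP and input differed in other measures too. This division was made after the values were seen and is described without a test. All 11 genes on the X chromosome were among the 32 above input, and 0 of the 31 below input were on it. The median input difference from L2 to L4 was 1.83 in the 32 and 5.69 in the 31, while that from L4 to the adult was -3.30 and -3.26. Adult neuronal IP libraries 4 to 7, which also held the higher sperm gene levels, exceeded libraries 1 to 3 by a median log2 difference of 0.50 in the 32 and 1.09 in the 31. L4 libraries 1 to 3 exceeded libraries 4 to 6 by 1.42 in the 32 and 0.76 in the 31. L4 library 4 exceeded libraries 5 and 6, which have no input of the same number, by 0.24 in the 32 and 1.74 in the 31.

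The mutants addressed whether the level of these genes in neuronal nuclei changes when heterochronic genes are altered. Mutant values were compared by limma on log2(normalised count + 1) with adjustment over 6155 genes. The L1 and adult control libraries are the reference of the comparisons with control and were also used to choose the genes. The genes are low there by choice, which tilts the counts of higher against lower toward higher before any test. The comparisons between mutants share no library with that choice.

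At L1, loss of lin-4 changed 0 of the 63 genes, with a median log2 difference of 0.08, and limma called 0.065% of all genes in either direction. At an unadjusted limma p under 0.05 were 3 of the 63 and 186 of all 6155 genes. Y55F3AM.14 lay at 34.6, 106 and 76 normalised counts in the L1 mutants, which overlap the 4 L1 controls given above, and its log2 difference was -1.42 ± 0.66 (SE).

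In the adult, loss of lin-4 raised 24 of the 63 genes and lowered 0, with a median log2 difference of 0.56 against 0.01 for all genes; 4.22% of all genes were called higher. Gain of function in lin-14 raised 19 and lowered 2, with a median of 0.37 against 0.05 for all genes; 8.84% of all genes were called higher and 10.4% lower. Gain of function in lin-28 changed 0 by limma, with a median of 0.52 against 0.04, while 0.0162% of all genes were called. At an unadjusted limma p under 0.05 were 4 of the 63 and 572 of all 6155 genes. The 0 in lin-28 mutants depends on the controls and the fit. Against adult controls 1 to 3 alone 15 genes rose and 0 fell, with 6.41% of all genes called higher. With a replicate block 9 of 60 rose, with 5.1% of all genes called higher. These 3 comparisons share the adult control libraries and their values are given side by side.

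**Figure D3:**
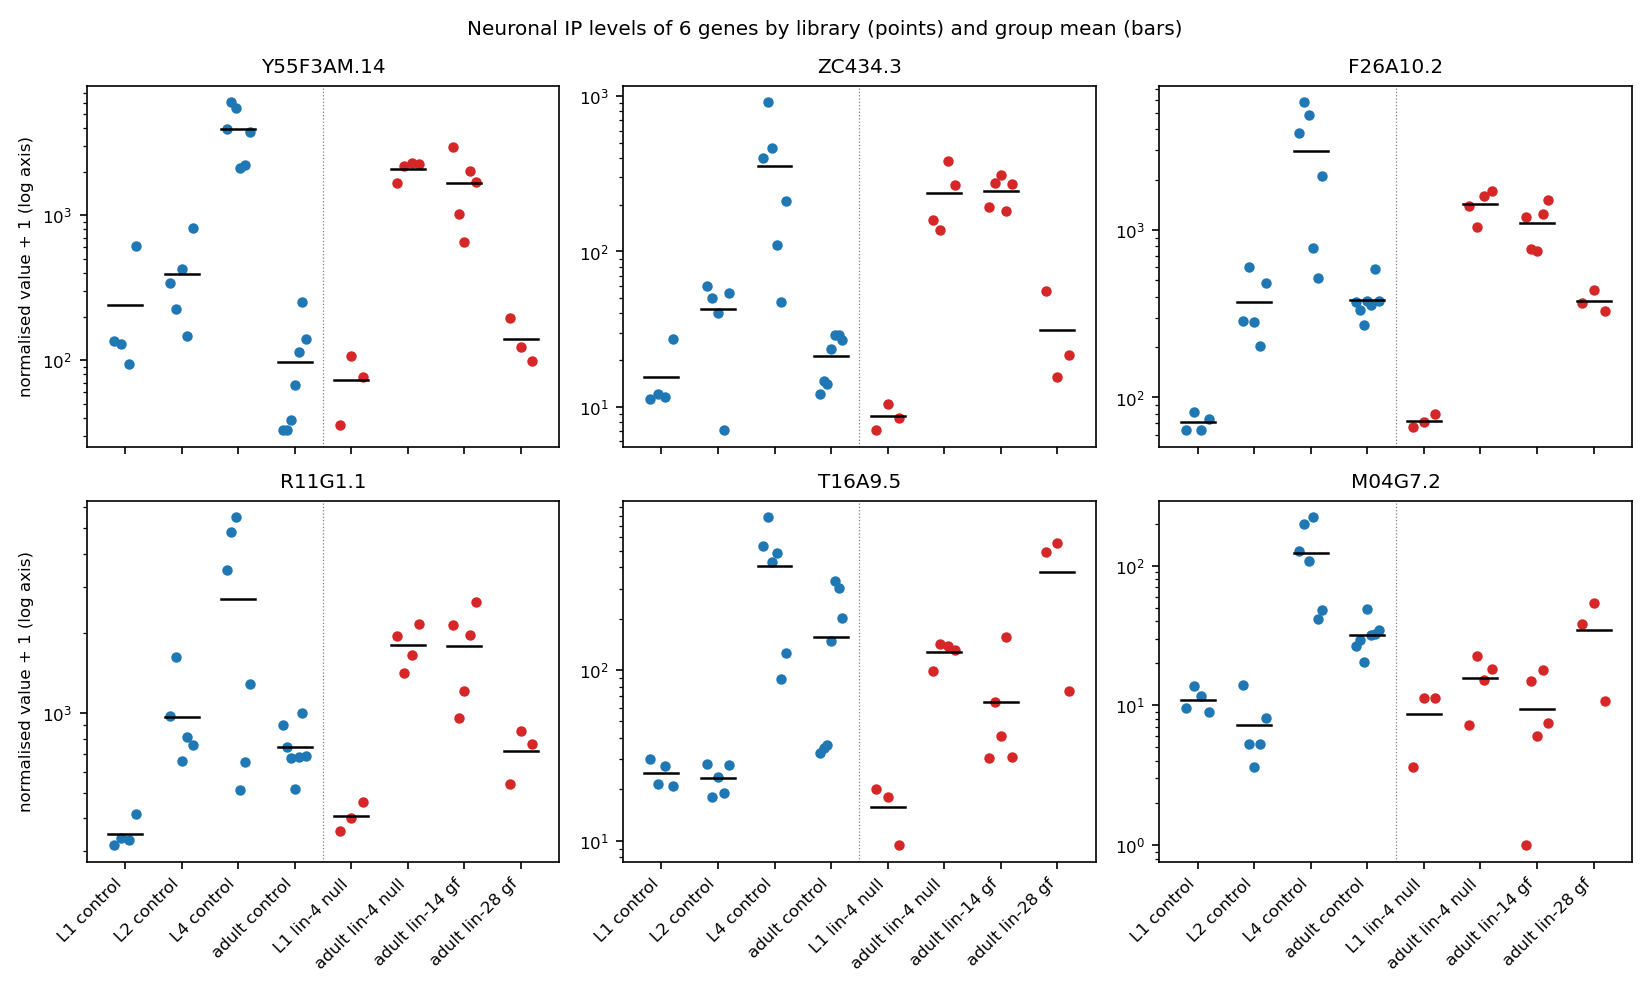
Normalised counts (log axis, value + 1) of Y55F3AM.14, ZC434.3, F26A10.2, R11G1.1, T16A9.5 and M04G7.2 in every neuronal IP library, by stage and genotype, with control libraries in blue, mutants in red and a bar at each group's mean. For the first 4 genes the adult lin-4 and lin-14 libraries lie above the adult controls and the lin-28 libraries lie among or near them, except that 1 lin-14 library of R11G1.1 is within the control range, while T16A9.5 and M04G7.2 do not show this.

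Y55F3AM.14 had the greatest increase of the 63 in both mutants. Its adult lin-4 libraries held 1667, 2172, 2281 and 2253 normalised counts and its lin-14 libraries 2981, 1019, 656, 2022 and 1704, against 31.8 to 253 in the 7 adult controls and 196, 122 and 98.0 in the lin-28 mutants. Neither the lin-4 nor the lin-14 libraries overlapped the controls, and the lin-28 libraries lay within the control range. By limma the log2 difference was 4.82 ± 0.54 (SE; adjusted p = 4.17e-06) in lin-4 and 4.33 ± 0.51 (SE; adjusted p = 7.75e-06) in lin-14.

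ZC434.3 lay at 158, 137, 382 and 268 normalised counts in the lin-4 and at 191, 276, 308, 180 and 271 in the lin-14 mutants. The 7 adult controls lay between 11 and 28.1, and the lin-28 mutants at 54.9, 14.5 and 20.7, so that the lin-4 and lin-14 libraries stood above all others. Its limma log2 difference was 3.44 ± 0.35 (SE; adjusted p = 8.25e-08) in lin-4 and 3.59 ± 0.32 (SE; adjusted p = 1.76e-08) in lin-14.

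The F26A10 genes on the X chromosome moved in the same direction in both mutants. F26A10.2 lay at 1386, 1041, 1596 and 1716 normalised counts in lin-4 and at 1196, 770, 749, 1248 and 1509 in lin-14 mutants, above the 271 to 580 of the adult controls and the 368, 437 and 329 of the lin-28 mutants. Its limma log2 difference was 1.92 ± 0.20 (SE; adjusted p = 1.12e-07) in lin-4 and 1.5 ± 0.19 (SE; adjusted p = 4.9e-06) in lin-14. The small nucleolar RNA F26A10.28 rose by 2.19 and 1.70 on the log2 scale, and the non-coding RNA F26A10.22 by 2.28 and 2.31. F26A10.28 and F26A10.22 were named here because they are neighbours of F26A10.2, which was named for its L4 mean and its p.

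Y75B7AR.1, also among the 4 genes with the lowest p in both comparisons, lay at 338, 206, 442 and 300 normalised counts in lin-4 mutants and at 196, 249, 303, 241 and 317 in lin-14 mutants, above the 43.2 to 134 of the adult controls. The lin-28 libraries, at 120, 149 and 36, straddled the control range. By limma its log2 difference was 2.23 ± 0.30 (SE; adjusted p = 1.11e-05) in lin-4 and 1.97 ± 0.28 (SE; adjusted p = 2.8e-05) in lin-14.

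Named genes among those that rose in lin-4 mutants included F36H2.3 (cfh-1), by 1.40, F32D8.1 (cat-6), by 1.76, and C25F6.7 (itm-2), by 1.03 on the log2 scale. F36H2.3 and F32D8.1 rose in lin-14 mutants too, by 1.00 and 1.24, while C25F6.7 stood at 0.55 ± 0.30 (SE; limma adjusted p = 0.212). C06G1.2 (cpg-19) stood at 0.34 and 0.25, F35E2.9 (try-16) at 0.13 and -0.05 and C01F6.2 (gldi-10) at 0.29 and 0.20 in lin-4 and lin-14, none of them called. Y51H7C.13, H17B01.2 and Y106G6G.4 were called in neither mutant, with log2 differences of 1.67, 0.23 and 0.18 in lin-4 mutants and SEs of 1.16, 1.06 and 0.44.

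Only M04G7.2 and Y18H1A.15 fell in lin-14 mutants. M04G7.2 lay at 0, 14, 5.09, 16.8 and 6.54 normalised counts there and between 19.4 and 48.2 in the adult controls, with no overlap (limma log2 difference -2.24 ± 0.50 SE, adjusted p = 0.00324). Y18H1A.15 lay at 13.2, 20.3, 12.7, 30.5 and 11.2 against 20.2 to 57.3 in the controls, which overlap (limma log2 difference -0.96 ± 0.32 SE, adjusted p = 0.0354). Both were below input at L4.

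**Figure D4:**
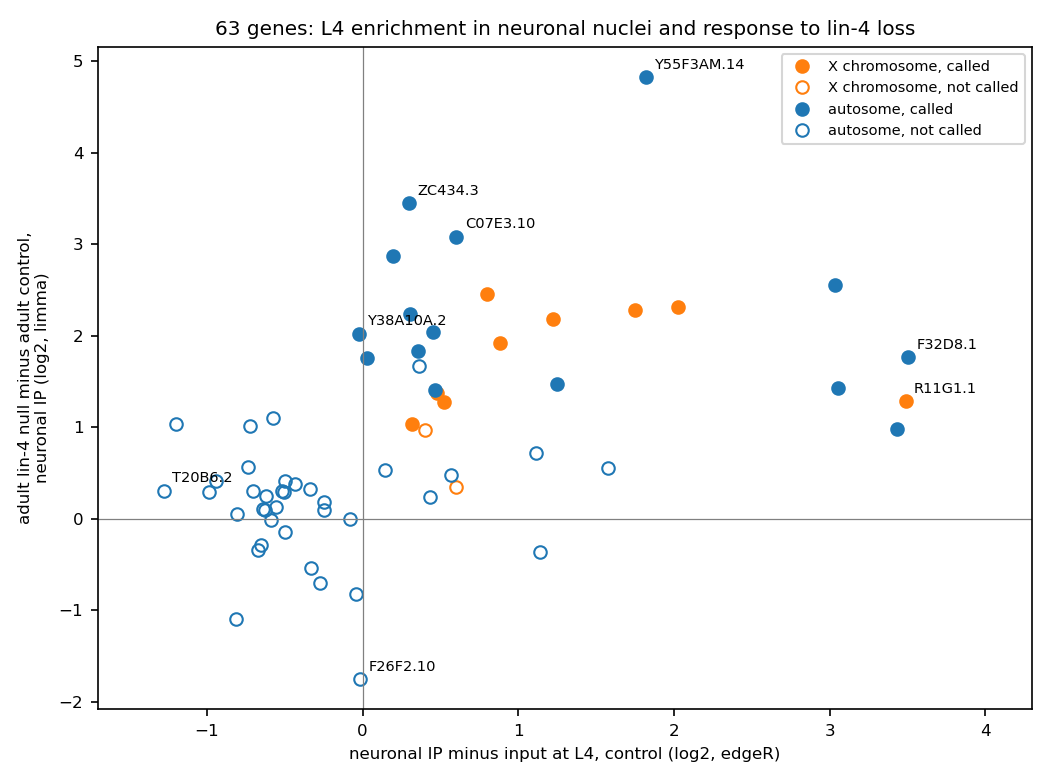
Each point is 1 of the 63 genes, with the log2 difference of neuronal IP and input at L4 on the horizontal axis and the log2 difference of adult lin-4 null and adult control on the vertical axis. Orange points are on the X chromosome, blue points on an autosome, and filled points were called in the lin-4 comparison; 23 of the 24 filled points and all orange points lie to the right of 0.

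The genes that rose in the mutants were mostly those above input at L4. Of the 32 above input 23 were called higher in lin-4 and 18 in lin-14 mutants, and of the 31 below input 1 was in each, Y38A10A.2, whose L4 difference of neuronal IP and input was -0.03. The median log2 difference was 1.57 in the 32 and 0.18 in the 31 for lin-4, 1.07 and -0.21 for lin-14, and 0.30 and 0.68 for lin-28. This division was not tested.

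The adult controls differ among themselves, and the comparisons were repeated with each set of control libraries. Against adult controls 1 to 3 alone, 29 genes rose and 0 fell in lin-4 and 25 rose and 0 fell in lin-14 mutants, while 6.35% and 6.91% of all genes were called higher. In lin-28 mutants 15 rose, 5 of them above input at L4 and 10 below. Against adult controls 4 to 7 alone, 17 rose and 1 fell in lin-4 mutants, with 3.51% of all genes called higher and 2.68% lower. In lin-14 mutants 16 rose and 5 fell, with 9.25% of all genes called higher and 10.4% lower. As shares of the 63, neither number of genes that fell exceeds that of all genes. In lin-28 mutants 0 changed against these controls (limma, 1 of all genes called). F26F2.10 was the gene that fell in lin-4 mutants against controls 4 to 7. It fell in lin-14 mutants along with M04G7.2, T16A9.5, Y106G6G.4 and Y18H1A.15, all of them below input at L4. The decrease of M04G7.2 and Y18H1A.15 in lin-14 mutants thus lost its call against controls 1 to 3 alone. Of the 32 genes above input at L4, 23 and 21 rose in lin-4 and lin-14 mutants against controls 1 to 3, and 16 and 15 against controls 4 to 7. Of the sperm list 1 gene, of the molting list 3 and of the cuticle list 0 could be measured in the table that holds the mutants, so the sperm and cuticle lists have no usable value there. The 3 molting genes were all above 0 in adult lin-4 mutants (median log2 difference 0.67), 2 of them called, and in lin-14 mutants (median 0.43), 1 of them called. The adult effect of lin-4 loss exceeded the L1 effect in all 3 (median 1.35), 1 of them called. The part of molting in the differences of the 63 genes was not tested. Of 20 pan-neuronal genes 0 rose and 2 fell in lin-4 mutants (median -0.20), and 0 rose and 4 fell in lin-14 mutants (median -0.33).

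Between mutants, no library had served to choose the genes. Adult lin-4 null libraries exceeded lin-28 gain-of-function libraries in 17 of the 63 genes and were lower in 0 (limma; median log2 difference 0.23; 2.91% of all genes were called higher). Of the 63, 33 were above 0 and 30 below. With a replicate block over these groups alone 6 rose, with 0.402% of all genes called higher. Of the 32 genes above input 16 were called, with a median of 1.28. Y55F3AM.14 was 3.96 ± 0.66 (SE; limma adjusted p = 0.000928) and ZC434.3 3.04 ± 0.42 (SE; limma adjusted p = 5.81e-05) higher on the log2 scale.

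The lin-14 libraries exceeded the lin-28 libraries in 14 genes and were lower in 5 (limma; median log2 difference -0.13; 7.75% of all genes were called higher and 12.8% lower). The 5 were T16A9.5, M04G7.2, Y18H1A.15, ZC581.2 and F26F2.10, all below input at L4. These 5 calls depend on the processing: with no further factor on the size-adjusted values 0 genes were lower, and with only these groups fitted 1 was. T16A9.5 lay at 29.5, 63.7, 39.9, 156 and 29.9 normalised counts in lin-14 mutants and at 490, 550 and 74.1 in lin-28 mutants. In all 5 genes the first 2 lin-28 libraries stood far above the third. F26F2.10 lay at 34.1, 36.3 and 2.18 and M04G7.2 at 37.1, 53.21 and 9.804. Y18H1A.15 lay at 69.75, 79.81 and 15.25 and ZC581.2 at 93.49, 133 and 28.32. T16A9.5 overlaps T16A9.6 on the opposite strand. Without the first lin-28 library the number of genes called in either direction was 10, and without the second it was 12, against 19 with all libraries. Over all removals of 1 library the number ran from 10 to 26, so it also rose.

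Between adult lin-4 null and lin-14 gain of function, 1 gene was called, F55F3.4, which was higher in lin-4 (limma; 0.065% of all genes were called higher). It lay at 214, 124, 186 and 290 normalised counts in lin-4 and at 32.5, 47.6, 30.5, 48.4 and 64.5 in lin-14 mutants, with no overlap (log2 difference 2.15 ± 0.39 SE, limma adjusted p = 0.00404). The adult controls lay between 10.1 and 67.8. Without adult lin-4 library 4, 0 genes were called.

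The effect of lin-4 loss differed between stages for 11 of the 63 genes, in each case by being greater in the adult than at L1 (limma; median difference of the log2 effects 0.68; 0.504% of all genes were called higher). Both the L1 and the adult controls in this contrast had served to choose the genes. Of these 11, 10 were above input at L4. For Y55F3AM.14 the difference was 6.25 ± 0.85 (SE; limma adjusted p = 0.000189), for ZC434.3 4.20 ± 0.55 (SE; limma adjusted p = 7.53e-05) and for C07E3.10, named after its values were seen, 5.02 ± 0.80 (SE; limma adjusted p = 0.000467). C07E3.10 lay at 2.60, 0.858 and 0 normalised counts in L1 lin-4 mutants and at 35.4, 53.8, 139 and 85.5 in adult ones, against 1.71 to 9.37 in L1 and 2.27 to 15.1 in adult controls. Without either the first or the second L1 lin-4 library, or the fourth adult one, 6 genes were called, and without the third L1 or the third adult lin-4 library 7.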

How the data were processed

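The authors deposited raw counts per gene for the 38 control libraries and size-adjusted values for the 37 neuronal IP libraries. Subread, featureCounts and DESeq2 are named in the submitters' processing notes, without versions or a genome build. The size-adjusted scores deposited by the authors are counts rescaled to a common library sum of 3998798 to 4000500: 100% of control values matched rescaled counts within 0.501. Each library was divided by 1 median-ratio factor (0.674 to 1.43, from 5244 genes), which gives the normalised counts. The deposited DESeq2-normalised tables were not used here.

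Raw counts were tested with edgeR 4.0.16 (TMM, filterByExpr with a minimum count of 10, 21040 genes, all control groups in 1 fit) in R 4.3.3, and normalised counts with limma 3.58.1 (trend, robust, pseudocount 1, at least 10 in 3 libraries, 6155 genes, 26 libraries); a difference on the log2(value + 1) scale understates the change of low genes. All 63 genes passed both filters. CPM was computed from the raw counts. Calls are at an adjusted p under 0.05. Both scripts were tested on simulated data. No 2 libraries agreed within sampling noise. The replicate numbers of L1 lin-4 null and L1 control libraries deviated together (correlations 0.438, 0.382 and 0.194); with the block 0 of the 49 genes left by its filter were called.

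The 63 genes and the gene lists were chosen with earlier results of these data known. The genes named are the 10 with the highest L4 mean, those with the largest called input differences (6 from L2 to L4, 4 from L4 to the adult), up to 4 per direction with the lowest p in each mutant comparison, 3 on each side of the 2-fold criterion and 3 at each end of the L4 difference of neuronal IP and input. Others named, such as those with an annotated name, a neighbour or no overlap, were chosen after their values were seen.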

Additional observations from a re-analysis of the deposited data

Results flagged for a closer look

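The 10 genes with the highest L4 mean were screened for single libraries that stand apart within a group of 4 to 7 libraries by Dixon's criterion, which marks about 1 in 20 groups by chance; 13 of 90 groups of values were marked. In the adult control neuronal IP, library 6 was the highest and stood apart for Y51H7C.13 (2002 normalised counts), F26A10.2 (580.3), H17B01.2 (225.8) and Y75B7AR.1 (134.0). In adult lin-14 gain of function, library 4 stood apart for both Y51H7C.13 (2851) and H17B01.2 (226.4), the neighbouring pair on chromosome II. The fourth L1 library held the highest value of Y55F3AM.14 in the neuronal IP (609.0 normalised counts) and in the input (14.69 CPM). Y75B7AR.1 stood apart at 582.0 in L2 library 5 and at 1255 in L4 library 2 of the neuronal IP. The fourth L4 input was the lowest and stood apart for R11G1.1 (5.77 CPM), Y34B4A.10 (18.6 CPM) and Y32G9B.1 (10.19 CPM).

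The lin-4 effect differed between adult and L1, by limma's test of that difference, for 7 of the genes followed one by one, and in each the adult effect was the greater. The difference of the log2 effects was 6.25 for Y55F3AM.14, 4.20 for ZC434.3, 2.24 for Y75B7AR.1, 2.07 for Y38A10A.2, 1.99 for F32D8.1, 1.89 for F26A10.2 and 1.76 for Y32G9B.1. All 4 adult lin-4 libraries exceeded all 7 adult controls for each of these 7 genes.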

How the results depend on the processing

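For the input comparisons every normalization, filter and test tried gave 43 or more called genes of 63 from L2 to L4: 51 with DESeq2, 49 with its size factors in edgeR, 48 with no filter and 43 with the replicate block. Leaving out 1 library at a time gave 43 to 49 from L2 to L4, 52 to 56 from L1 to L4, 56 to 59 from L4 to the adult, 0 for lin-4 at L1, 19 to 25 for adult lin-4, 17 to 21 for lin-14, 0 for lin-28, 13 to 21 for lin-4 against lin-28, 10 to 26 for lin-14 against lin-28, 0 to 1 for lin-4 against lin-14 and 6 to 12 for the difference of the lin-4 effect between stages. Shares of all genes called are not given for these settings, so the counts show only how the number called among the 63 moved. With the replicate block, which only the L1 pairing bears out, lin-28 gain of function called 9 genes, with 5.1% of all genes called higher. There lin-4 against lin-28 called 6, with 0.402% of all genes called higher. Against adult controls 1 to 3 alone lin-28 called 15, with 6.41% of all genes called higher. The cause was not tested. With no further factor on the size-adjusted values, the median of all genes moved to 0.23 for lin-4 and 0.39 for lin-14. In that setting 27 genes rose and 0 fell in lin-4, and 24 rose and 1 fell in lin-14. Against lin-28, 19 rose and 0 fell in lin-14. A shift of all genes upward adds higher calls and removes lower ones, so these counts are not read as results about the 63 genes. The share of all genes called in that setting is not given here. Fitting only the groups compared gave 13 and 1 for lin-14 against lin-28, again without the share of all genes. The number of genes at least 2-fold highest at L4 was 37 with L4 libraries 4 to 6 alone. Of the alternatives for 42 single-gene results, 620 kept direction and call, 34 lost the call, 10 of these Y75B7AR.1 from L2 to L4 in input, and 0 reversed. Input depth limits genes near 0 before L4, whose differences are bounds.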
